A study of Mus musculus with 22 samples.

Results

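Astrocytes are the glial cells that take up transmitter and potassium, supply neurons with lipids and metabolites, and line the blood vessels of the brain with their endfeet. In the mouse they arise from radial glia around birth, after most neurons have been made, and they acquire their characteristic genes as they mature. The 10 genes described here belong to that programme: Gfap, S100b, Aqp4, Gja1, Slc1a2, Glul, Aldoc, Apoe, Sparcl1 and Fgfr3. They were found by gene name, or an older synonym of it, among the probes of an Agilent mouse array, where they have 23 of 41174 probes and 10 of 21107 gene symbols. One of these, the Slc1a2 probe A_51_P179878, carries a clone name in the files that the RefSeq gene table lists as a synonym of Slc1a2. Every probe is reported apart, because brightness depends on the probe and levels cannot be compared between probes.

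The arrays compared whole brain RNA of mice labelled Agtr2 knockout with RNA of control mice, at embryonic day 15 (E15) and postnatal day 1 (P1). Agtr2 encodes the angiotensin II type 2 receptor, which is X-linked. At E15 there were 8 knockout and 6 control animals on 14 arrays, and at P1 there were 4 knockout and 4 control animals on 8 arrays. The P1 controls carry no number in the labels and are numbered here by the knockout animal on their arrays, which assumes that both dye orientations of a pair used the same control. The series describes the animals as biological replicates, but strain, sex, litter and the nature of the deletion are not given in the sources used here. Each array carried 1 knockout and 1 control animal in the Cy3 and Cy5 dyes, with both dye orientations for every knockout animal other than numbers 3 and 4 at E15, for which a single orientation was run. At E15, knockout animal 1 met controls 1 and 6 in its orientations, and knockout animal 2 met controls 2 and 3. Because E15 had fewer controls than knockout animals, some controls were used more than once, which ties knockout animals 1, 4 and 7 to each other and likewise animals 2, 3 and 8. The tissue was total RNA of frozen slices of whole brain. In such tissue, fewer cells of a type and less RNA per cell cannot be told apart.

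The number of arrays limits the precision. Between 68.6% and 93.0% of the spots of an E15 array, and between 62.3% and 95.1% of those of a P1 array, were well above background as marked by the scanner software. The tissue label was checked against neuronal markers, of which 14 of 14 on the array were well above background in every channel at both ages. The targeted gene did not separate the groups. The 1 Agtr2 probe, A_51_P437978, lay between 6.14 and 9.19 (log2 intensity) in E15 controls and between 6.22 and 7.09 in E15 animals labelled knockout. At P1 it lay between 6.07 and 6.24 in controls and between 6.04 and 6.36 in animals labelled knockout. The probe's place relative to the deleted part is not given in the sources used here, so the animals are called by their label. All P1 arrays were scanned on 1 day and with another version of the scanner software than the E15 arrays, which were scanned on 3 other days. Age, scan day and software version therefore cannot be told apart.

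Transcription of astrocyte genes is known to be opened by nuclear factor I (NFI) proteins and driven by STAT3, so the bases before the transcription start are shown for 3 members, picked after their counts of NFI half-sites were seen to span many, some and none. RefSeq promoter windows (build GRCm38.p6, the 250 bases before a start) were matched for 8 of the 10 genes, with 12 starts. The NFI half-site TTGGC, on either strand and with overlaps of the STAT motif allowed, was found before 6 of the 12 starts, against 41.5% of all 32851 windows. The STAT motif TTCNNNGAA was found before 1 of the 12, a start of Aldoc, against 7.02% of all windows. A match describes letters and is not evidence of a bound site. S100b, whose level was higher at P1 in controls, has 3 half-sites, at 203, 29 and 19 bases before its start. Glul, with 1 probe clearly higher at P1, has 2, at 114 and 51 bases. Gfap, whose probes were dim, has none in this window. Among the other members, Fgfr3, with the probe that rose by 2.35, has 0 half-sites before both of its starts, Apoe has 1, 0 and 1 before its 3 starts, and Gja1, which did not pass the test, has 0. Capitals mark the half-site. The S100b window lies at chr10:76253586-76253835 on the plus strand, that of Glul at chr1:153899679-153899928 on the plus strand, and that of Gfap at chr11:102897201-102897450 on the minus strand.
S100b: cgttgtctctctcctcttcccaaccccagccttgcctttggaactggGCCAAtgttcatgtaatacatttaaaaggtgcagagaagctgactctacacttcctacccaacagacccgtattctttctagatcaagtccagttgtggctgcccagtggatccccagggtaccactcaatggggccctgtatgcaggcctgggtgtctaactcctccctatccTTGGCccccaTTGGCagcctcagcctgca
Glul: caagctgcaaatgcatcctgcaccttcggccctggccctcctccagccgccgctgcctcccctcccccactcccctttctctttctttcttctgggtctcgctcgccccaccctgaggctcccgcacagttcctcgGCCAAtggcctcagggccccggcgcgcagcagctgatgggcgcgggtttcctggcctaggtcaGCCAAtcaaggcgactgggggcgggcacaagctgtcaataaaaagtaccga
Gfap: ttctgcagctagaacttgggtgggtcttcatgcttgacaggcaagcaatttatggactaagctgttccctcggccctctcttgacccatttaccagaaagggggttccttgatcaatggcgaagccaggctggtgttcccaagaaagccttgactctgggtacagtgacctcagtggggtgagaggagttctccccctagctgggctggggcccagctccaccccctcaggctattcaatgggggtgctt

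The first question was how the members' level at P1 stood against E15 in control animals alone. Of the 23 member probes, 22 were well above background in at least 50% of the channels of either age and entered the test, and the exception was the Fgfr3 probe A_51_P237613. Among the 22, 15 were higher and 1 was lower at P1 (limma over all probes, Benjamini-Hochberg adjusted p under 0.05), with a median change of 0.56 on the log2 scale. Among all 36315 probes tested, 15.0% were called higher and 21.6% lower, and the median change was -0.07. All P1 controls with a value lay above all E15 controls for 14 member probes, one of them the S100b probe with 2 of its 4 P1 controls measured, and below them for 1, where 11.9% of all probes lay wholly above and 16.3% wholly below. Of the 10 genes, 9 had at least 1 probe called higher, 5 had every tested probe called higher, and Gja1 had none. Members have 1 to 5 probes, and more probes give more chances of a call. The share of all genes with a probe called higher is not given here, so the counts of genes have no baseline. One probe, Gfap A_51_P395056, passed the filter only through P1, where it is the higher, so the filter favoured its call and its lack of overlap. With probes that passed at both ages, chosen after seeing the data, 14 of 21 member probes from 8 genes were higher and 1 lower. Of all 33191 such probes, 13.9% were higher and 22.9% lower. P1 controls lay wholly above E15 controls for 13 of the 21 and wholly below for 1, against 3571 and 5612 of the 33191. The 1 lower call is a Slc1a2 probe that may read the other strand, as described with its values. All levels and changes are log2 values after a background correction that adds an offset of 50, so changes of dim probes are understated.

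**Figure D1:**
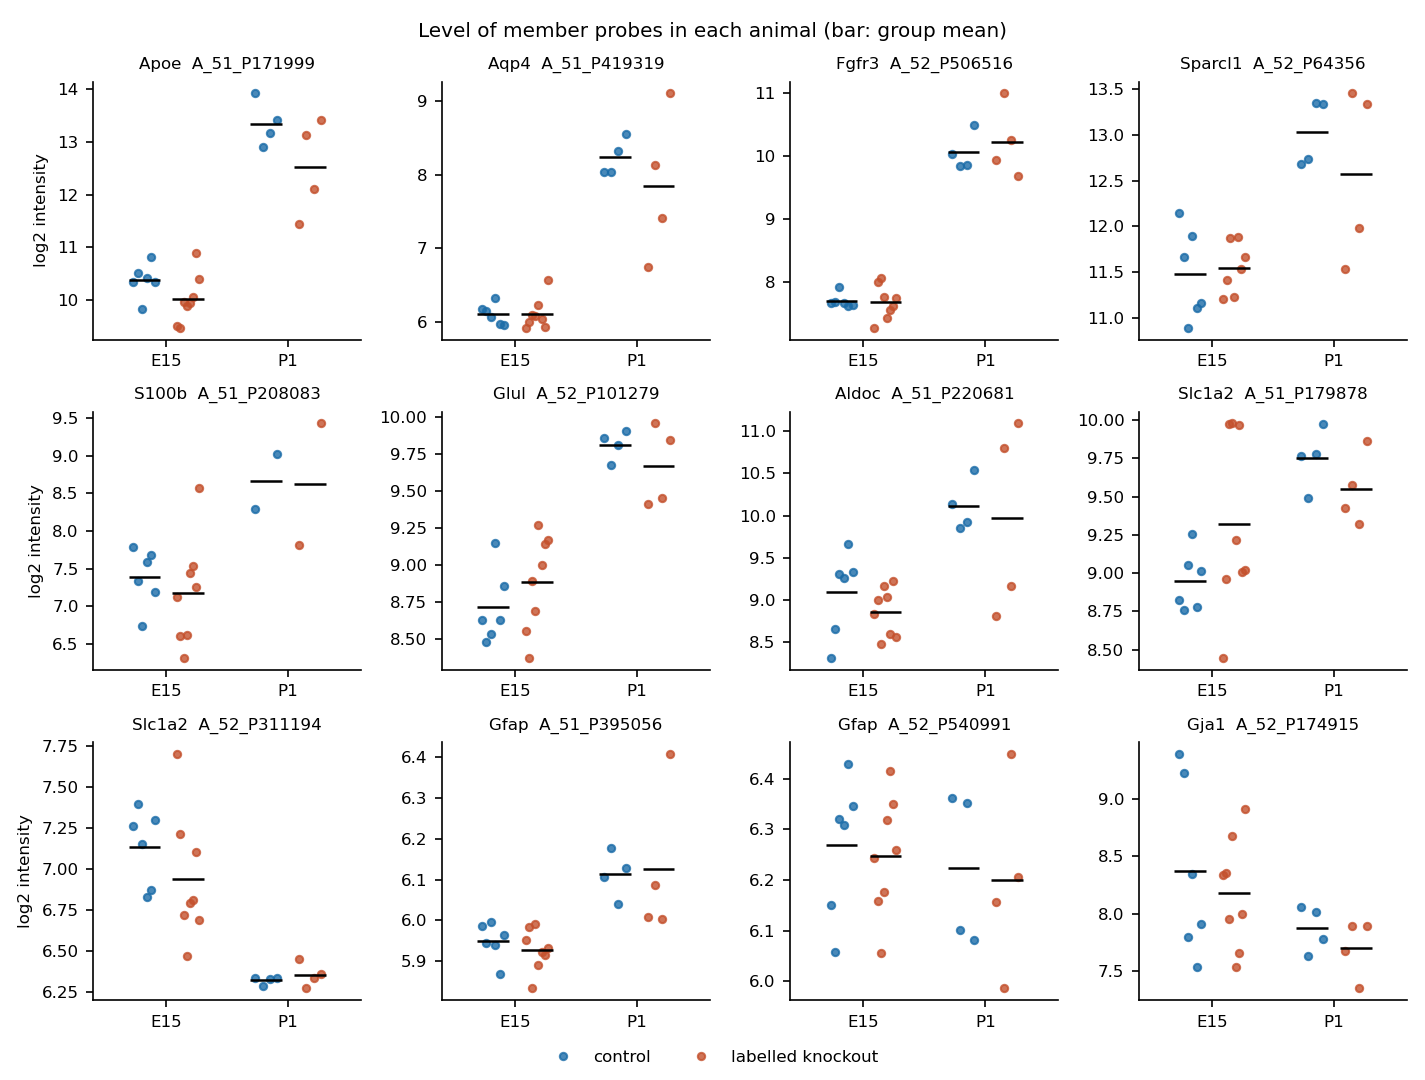
Log2 intensity (vertical axis) of 12 member probes in every animal at E15 and P1, with control animals in blue, animals labelled knockout in red and a bar at each group mean. Apoe lies between 9.83 and 10.82 in E15 controls and between 12.90 and 13.93 in P1 controls, while Gfap A_52_P540991 lies between 6.06 and 6.43 in E15 controls and between 6.08 and 6.36 in P1 controls.

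Of the lipid and metabolic genes, Apoe, which encodes the main lipid carrier of the brain, stood far apart at the ages. Its probe, A_51_P171999, lay between 9.83 and 10.82 in the 6 E15 controls, with a median of 10.38. The 4 P1 controls were at 13.93, 12.90, 13.16 and 13.41, so the ages did not overlap. The change was 2.97 (SE 0.21, adjusted p = 3.63e-06 by limma), and it lay between 2.52 and 3.12 over the alternatives tried. Aldoc encodes the brain form of aldolase, a glycolytic enzyme enriched in astrocytes. Its brighter probe, A_51_P220681, lay between 8.31 and 9.67 in E15 controls and at 10.14, 9.86, 9.93 and 10.54 in P1 controls, without overlap. It rose by 1.02 (SE 0.25, adjusted p = 0.00872 by limma), but the call was not reached with Cy3 channels alone (0.91, adjusted p = 0.0545). The dimmer Aldoc probe, A_51_P425284, rose by 0.68 (SE 0.07, adjusted p = 3.34e-05) and by 1.16 with an offset of 10.

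The genes of the astrocyte's ion, water and junction membranes divided. Aqp4 encodes the water channel of the endfeet and was higher with all 3 probes. The probe A_51_P419319 lay between 5.95 and 6.32 in E15 controls, where it was well above background on 9 of 14 arrays, and at 8.04, 8.04, 8.33 and 8.55 in P1 controls. The change was 2.14 (SE 0.11, adjusted p = 6.04e-07 by limma), and it became 3.22 with an offset of 10 and 4.39 with the scanner's processed signals. The probe A_52_P625527 rose by 1.27 (SE 0.10, adjusted p = 1.01e-05) and A_52_P25710 by 0.44 (SE 0.12, adjusted p = 0.0123), and in the latter the ages overlapped. With an offset of 10 the change of A_52_P625527 was 1.92. With Cy5 channels alone A_52_P25710 was not called (0.34, adjusted p = 0.169). Gja1, which encodes connexin 43 of astrocyte gap junctions, did not pass the test. Its probe, A_52_P174915, lay between 7.53 and 9.39 in E15 controls and at 8.06, 7.63, 8.02 and 7.78 in P1 controls, and the change was -0.50 (SE 0.35, adjusted p = 0.291). The highest E15 values were those of controls 1 and 2, at 9.39 and 9.23, whose summed level of meningeal and fibroblast genes was 15.88 and 14.55 where the other 4 controls lay between 12.44 and 13.53 (log2 of summed intensity). Without both, an alternative chosen after seeing the data, the Gja1 change was -0.03. Leaving out the highest E15 values moves a negative change toward 0 whatever else the animals share. Control 5, with the next highest meningeal sum (13.53), had the lowest Gja1 level, at 7.53. The part of meningeal tissue in the Gja1 level was not tested.

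The glutamate-handling genes gave different answers by probe. Slc1a2 encodes the glutamate transporter GLT-1, and its brightest probe, A_51_P179878, lay between 8.76 and 9.26 in E15 controls and at 9.77, 9.49, 9.78 and 9.97 in P1 controls. These ages did not overlap, and the change was 0.80 (SE 0.12, adjusted p = 0.000542 by limma). The probe A_52_P168496 rose by 0.44 (SE 0.08, adjusted p = 0.00122). The probe A_52_P311194 fell by 0.81 (SE 0.11, adjusted p = 0.00036), with the P1 controls between 6.28 and 6.34 below the E15 controls between 6.83 and 7.40. Its coordinates in the files run high to low on chromosome 2, whereas those of the other 4 Slc1a2 probes run low to high, so it may read the other strand and not Slc1a2 mRNA, which was not tested. With an offset of 10 these changes became 0.93 for A_52_P168496 and -1.33 for A_52_P311194, and with the scanner's processed signals 1.78 and -1.58. The remaining probes A_52_P178651 (-0.15, adjusted p = 0.238) and A_51_P477875 (-0.09, adjusted p = 0.415) did not pass the test. Glul encodes glutamine synthetase, which turns glutamate into glutamine. Its probe A_52_P101279 lay between 8.48 and 9.15 in E15 controls and at 9.86, 9.68, 9.81 and 9.91 in P1 controls, without overlap, and rose by 1.1 (SE 0.12, adjusted p = 9.25e-05). The probe A_51_P441798 rose by 0.34 (SE 0.12, adjusted p = 0.0419), a call kept in 11 of 20 alternatives and lost in 6 of the 10 fits without 1 control animal, among them the fit without P1 control 4 (0.20, adjusted p = 0.0730). With Cy5 channels alone it stood at 0.10 (adjusted p = 0.559). The probe A_52_P143866 stood at -0.18 (SE 0.08, adjusted p = 0.0874), and was called lower without E15 control 6 (-0.22, adjusted p = 0.0321).

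Sparcl1, also named hevin, encodes a secreted matrix protein that promotes synapse formation. Its probe A_52_P64356 lay between 10.89 and 12.15 in E15 controls and at 12.68, 12.74, 13.35 and 13.34 in P1 controls. The ages did not overlap, and the change was 1.55 (SE 0.26, adjusted p = 0.00106 by limma). With the scanner's processed signals it was 0.99. The second probe, A_51_P210510, rose by 1.26 (SE 0.23, adjusted p = 0.00214).

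Fgfr3, a receptor for fibroblast growth factors found on astrocytes and their precursors, had probes that disagreed. The probe A_52_P506516 lay between 7.62 and 7.93 in E15 controls and at 10.03, 9.84, 9.86 and 10.48 in P1 controls, a change of 2.35 (SE 0.12, adjusted p = 5.17e-07 by limma). The probe A_51_P322906 shares 37 of its 60 bases with it, by the coordinates in the files. Yet this probe lay between 6.68 and 7.15 at E15 and at 7.17, 7.36, 7.17 and 7.50 at P1, a change of 0.30 (SE 0.11, adjusted p = 0.0618). It was called in 3 of 20 alternatives. The third probe, A_51_P237613, was well above background on 6 of 14 E15 and 4 of 8 P1 control channels and was not tested.

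Of the structural and calcium-binding genes, Gfap encodes the intermediate filament by which astrocytes are usually recognised. Its probe A_52_P540991 was well above background in 13 of 14 E15 and 6 of 8 P1 control channels. It lay between 6.06 and 6.43 in E15 controls and at 6.36, 6.10, 6.35 and 6.08 in P1 controls, and the change was -0.04 (SE 0.09, adjusted p = 0.730 by limma). The other probe, A_51_P395056, was well above background in 6 of 14 E15 control channels and 8 of 8 P1 control channels. It lay between 5.87 and 6.00 at E15 and at 6.11, 6.18, 6.04 and 6.13 at P1. These ages did not overlap, but the probe was tested only because it passed at P1, and Gfap counts among the genes called higher through it alone. The change of 0.16 (SE 0.05, adjusted p = 0.0347) was called in 7 of 19 alternatives, and was lost in 6 of the 10 fits without 1 control animal, for example without P1 control 2 (0.14, adjusted p = 0.0944). With the scanner's processed signals it was 1.27. S100b encodes a calcium-binding protein of maturing astrocytes. Its probe, A_51_P208083, lay between 6.73 and 7.78 in E15 controls. At P1 the scanner software marked its spot as an outlier on 5 of 8 arrays, which left P1 controls 3 and 4, at 8.30 and 9.03. The change over these was 1.28 (SE 0.29, adjusted p = 0.00836), and it was 0.91 (adjusted p = 0.0906) without P1 control 4. With outlier spots kept it was 1.44, and with Cy3 channels alone 2.18. The latter rests on P1 control 4 alone, because the spots of the other P1 controls in Cy3 were marked as outliers. Over all members, outlier marks fell on 14 of 184 P1 spots (7.61%), against 4.62% of all P1 spots, and on 9 of the 23 probes.

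**Figure D2:**
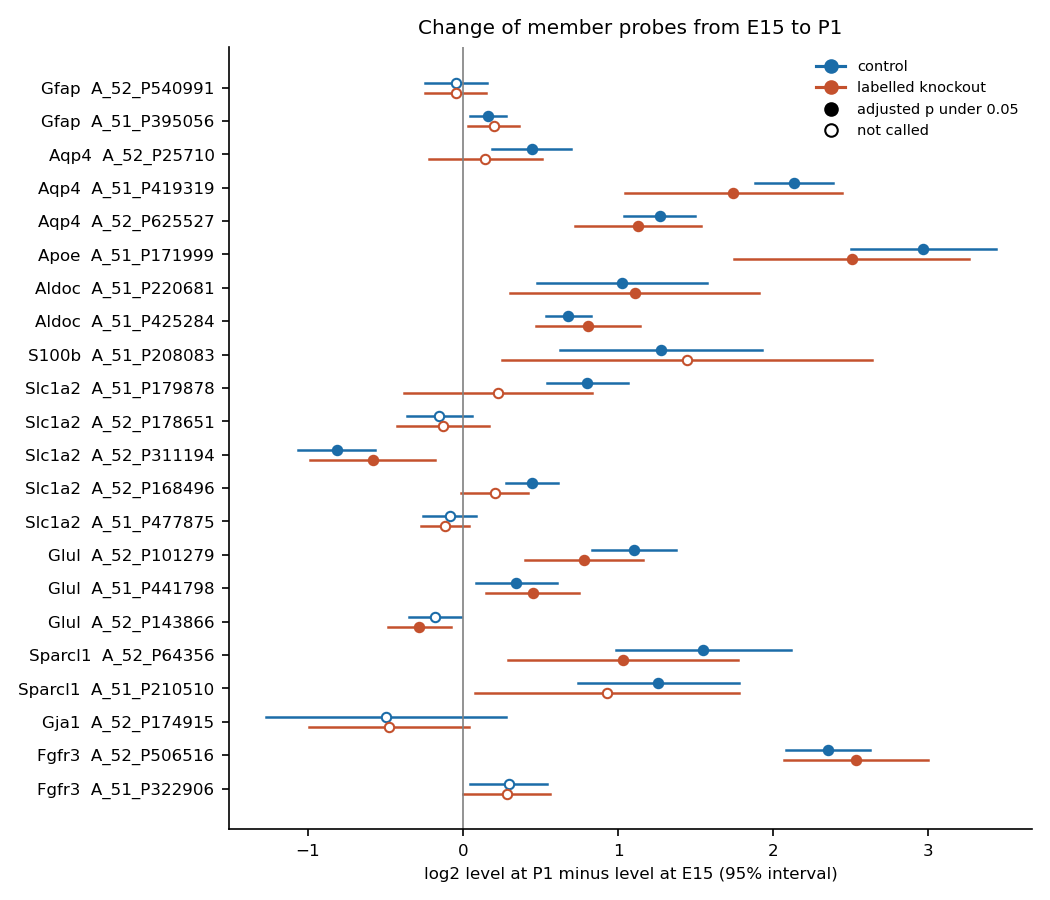
Log2 change from E15 to P1 of each tested member probe (horizontal axis) with its 95% confidence interval, in control animals and in animals labelled knockout. Apoe, Fgfr3 A_52_P506516 and Aqp4 A_51_P419319 stand above 2 in controls, and the Fgfr3 probe that overlaps the first stands at 0.30.

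The same age comparison was made in the animals labelled knockout, which shared arrays with the controls. Of the 22 member probes, 9 were called higher and 2 lower, with a median change of 0.37, where 12.7% of all probes were called higher and 15.4% lower. Fgfr3 A_52_P506516 rose by 2.53 (SE 0.21), Apoe by 2.51 (SE 0.35), and Aqp4 by 1.74 (SE 0.32) with A_51_P419319 and 1.13 (SE 0.19) with A_52_P625527. Glul A_52_P101279 rose by 0.78 (SE 0.17) and Aldoc A_51_P425284 by 0.81 (SE 0.15). None of these 6 calls was lost when 1 animal was left out. The other 5 calls were each lost in some such fits: Aldoc A_51_P220681 (1.11) in 8 of 12, Glul A_52_P143866 (-0.28) in 8, Sparcl1 A_52_P64356 (1.03) in 6, Slc1a2 A_52_P311194 (-0.58) in 6 and Glul A_51_P441798 (0.45) in 2. Without P1 replicate 4, for example, Aldoc A_51_P220681 stood at 0.73 (adjusted p = 0.154), Sparcl1 A_52_P64356 at 0.78 (adjusted p = 0.137), Glul A_51_P441798 at 0.30 (adjusted p = 0.101), Glul A_52_P143866 at -0.32 (adjusted p = 0.0530) and Slc1a2 A_52_P311194 at -0.59 (adjusted p = 0.0763). Aqp4 A_51_P419319 stood at 6.74, 8.13, 7.41 and 9.11 in the 4 P1 animals labelled knockout (SD 1.02), against an SD of 0.25 in the P1 controls. The Slc1a2 probe A_51_P179878, which rose in controls, stood at 0.23 (SE 0.28, adjusted p = 0.577) in the animals labelled knockout.

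The study's own question, whether the knockout shifts expression at either age, was then asked of the members. The value is the log2 ratio of knockout over control within an array, averaged per replicate. At E15, 0 of 21 member probes passed the test, as did 0% of all 34175 probes in either direction, with 2194 probes at an unadjusted p under 0.05. At P1, 0 of 22 member probes passed, as did 0% of all 34920 in either direction, with 3427 at an unadjusted p under 0.05. Among the members, 2 probes at E15 and 1 at P1 had an unadjusted p under 0.05. The median member ratio was -0.01 at E15 and -0.15 at P1, where the medians of all probes were -0.001 and 0.004. The difference between the ages, P1 minus E15, was also tested. It passed for 0 of 21 member probes, against 0.0241% of all probes called higher and 0.304% called lower. An unadjusted p under 0.05 was seen for 2 of the 21 member probes and for 2074 of all 33191 probes. A missed threshold does not show that groups were alike, and the intervals below give the sizes these arrays allow.

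**Figure D3:**
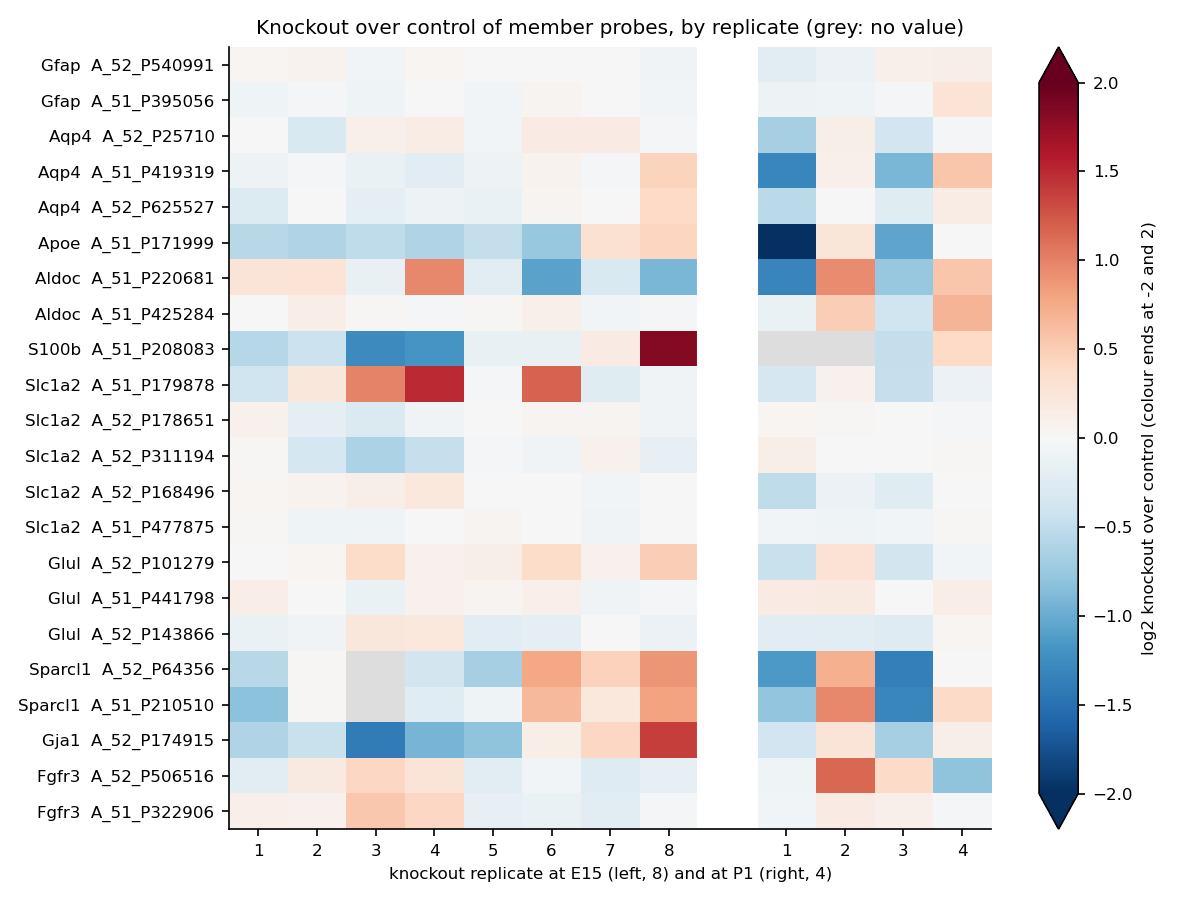
Log2 ratio of knockout over control as colour, with member probes as rows and the 8 E15 and 4 P1 replicates as columns (red above 0, blue below 0, grey without a value, colour saturated at -2 and 2). At P1 the ratios of Apoe run from -2.48 to 0.24, those of Gfap A_52_P540991 from -0.20 to 0.12.

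Apoe was the member with the widest P1 ratios. At P1 the replicates stood at -2.48, 0.24, -1.06 and 0.00, so replicates 1 and 3 were low and the others near or above 0. The mean was -0.82 (95% interval -2.05 to 0.40, adjusted p = 0.619 by limma), and -0.27 without replicate 1. Replicates 1 and 4 had 1 usable Apoe array each, because the spot was marked as an outlier on the other. With outlier spots kept the mean was -0.51. At E15 the ratios ran from -0.76 to 0.43 with a median of -0.53, and 6 of 8 were below 0. The E15 mean of -0.35 (95% interval -0.70 to -0.01) had an unadjusted p of 0.0473 and an adjusted p of 0.760. In replicates 1 to 4, scanned on 1 day, it was -0.57, and in replicates 5 to 8, scanned on the other days, it was -0.12, both chosen after seeing the data. Arrays with E15 controls 1 and 2 were all in replicates 1 to 4, so scan day and control animal cannot be told apart. Aldoc A_51_P220681 stood at -1.33, 0.95, -0.76 and 0.56 at P1 (mean -0.15, 95% interval -1.20 to 0.91) and ran from -1.07 to 0.96 at E15.

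Aqp4 was low in the same P1 replicates. Probe A_51_P419319 stood at -1.30, 0.10, -0.91 and 0.55 at P1, a mean of -0.39 (95% interval -1.24 to 0.46, adjusted p = 0.737 by limma). At E15 its ratios ran from -0.23 to 0.45, with 6 of 8 below 0. Gja1 stood at -0.38, 0.27, -0.67 and 0.11 at P1, a mean of -0.17 (95% interval -0.60 to 0.26). At E15 it stood at -0.60, -0.45, -1.40, -0.93, -0.81, 0.12, 0.41 and 1.38, a mean of -0.29 (95% interval -0.97 to 0.39, adjusted p = 0.839). The E15 mean was -0.85 (adjusted p = 0.183) in replicates 1 to 4 and 0.28 in replicates 5 to 8, the split by scan day chosen after seeing the data. The E15 controls with the highest Gja1 levels, at 9.39 and 9.23, were only on arrays of replicates 1 to 4. Scan day and control animal therefore cannot be told apart in this split.

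Slc1a2 A_51_P179878 stood at -0.34, 0.09, -0.46 and -0.11 at P1, a mean of -0.20 (95% interval -0.46 to 0.05, adjusted p = 0.557). At E15 replicates 3, 4 and 6 were high, at 0.99, 1.49 and 1.19, and the other 5 lay between -0.40 and 0.22. Glul A_52_P101279 was above 0 in 8 of 8 E15 replicates, from 0.003 to 0.49, with a mean of 0.20 (95% interval 0.05 to 0.34), an unadjusted p of 0.0141 and an adjusted p of 0.760. Replicates that share a control are not independent, and the share of all probes above 0 in 8 of 8 is not given here. With the knockout in Cy3 and in Cy5 the ratios had opposite signs in replicates 1 (0.05 and -0.04), 2 (0.17 and -0.10) and 5 (0.49 and -0.25). In replicates 1 and 2 the orientations also used different controls, so dye and control animal cannot be told apart there. At P1 this Glul probe stood at -0.45, 0.28, -0.36 and -0.06, and the difference between the ages was -0.34 (SE 0.14, unadjusted p = 0.0296, adjusted p = 0.752). The other member probe with an unadjusted p under 0.05 for this difference was Slc1a2 A_52_P168496, at -0.26 (SE 0.09, unadjusted p = 0.0110, adjusted p = 0.542). The member with an unadjusted p under 0.05 at P1 was Glul A_52_P143866, at -0.16 (SE 0.06, unadjusted p = 0.0490, adjusted p = 0.506).

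Sparcl1 A_52_P64356 stood at -1.15, 0.72, -1.37 and -0.0007 at P1, a mean of -0.45 (95% interval -1.42 to 0.52, adjusted p = 0.733). The value of replicate 4 is the average of 0.65 with the knockout in Cy3 and -0.65 with it in Cy5. At E15 this probe ran from -0.66 to 0.89 over 7 replicates, since the spots of replicate 3 were marked as outliers. Fgfr3 A_52_P506516 stood at -0.09, 1.15, 0.39 and -0.81 at P1 (mean 0.16, 95% interval -0.65 to 0.97). Its dye orientations disagreed: in replicate 1 the ratio was -1.01 with the knockout in Cy3 and 0.83 with it in Cy5, and in replicate 3 it was -0.45 and 1.22. The 1.15 of replicate 2 came from the array with the knockout in Cy5 alone, because the other spot was marked as an outlier. No dye effect of this probe was subtracted from that value. The overlapping probe A_51_P322906 stood between -0.05 and 0.17 in the 4 P1 replicates. Gfap A_52_P540991 lay between -0.07 and 0.07 at E15 and between -0.20 and 0.12 at P1. S100b had 2 P1 ratios, at -0.48 and 0.40. At E15 S100b stood at -0.57, -0.43, -1.28, -1.19, -0.16, -0.15, 0.16 and 1.84, a mean of -0.22 (95% interval -0.97 to 0.53).

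Member genes were mostly below 0 in P1 replicates 1 and 3. With 1 probe for each gene, the brightest, 0 of 9 members were above 0 in replicate 1, 8 of 9 in replicate 2, 2 of 10 in replicate 3 and 5 of 10 in replicate 4, with medians of -0.45, 0.27, -0.47 and 0.0009. Over all probes tested, 49.6%, 53.2%, 50.5% and 50.3% were above 0 in these replicates. Genes of hindbrain and spinal cord had medians of -0.41, 0.24, -0.23 and 0.24, and genes of forebrain had medians of 0.57, -0.34, 0.63 and -0.16. In replicates 1 to 3 the hindbrain and cord medians had the members' sign and the forebrain medians the opposite one, while in replicate 4 the members stood near 0. Medians below 0 in replicates 1 and 3 were also seen for neurons (-0.36, -0.21, -0.13 and 0.15), radial glia (-0.14, 0.12, -0.30 and 0.12) and the oligodendrocyte lineage (-0.15, 0.05, -0.20 and 0.13). The part of these cells and regions in the result was not tested. At E15, genes of meninges and fibroblasts, a tissue layer that can come away with a brain, had medians of -0.83, -0.08, -0.81, -1.50, 0.03, -0.47, 0.48 and 1.97 over the 8 replicates, with 16 of 16 above 0 in replicate 8. Their summed level ranged from 12.44 to 15.88 in E15 controls and from 12.55 to 15.89 in E15 animals labelled knockout, on the log2 scale, and 14 of 16 were well above background in every E15 channel. The values of Gja1 and S100b were likewise highest in replicate 8 and below 0 in replicates 1 to 4, but in replicate 5 Gja1 stood at -0.81 where the meningeal median was 0.03, and in replicate 6 at 0.12 where it was -0.47. Apoe (0.43), Sparcl1 A_52_P64356 (0.89) and Aqp4 A_51_P419319 (0.45) and A_52_P625527 (0.40) were highest in replicate 8 as well, as were 8 of the 21 tested member probes in all. The share of all probes highest in that replicate is not given here, so the count has no baseline. Apoe was above 0 in replicates 7 and 8 alone, where microglial genes had medians of 0.11 and 0.16, against -0.20 to -0.0006 in the other 6, and genes of endothelium and pericytes had medians of 0.20 and 0.22, against -0.30 to 0.04. The part of these tissues in the result was not tested.

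**Figure D4:**
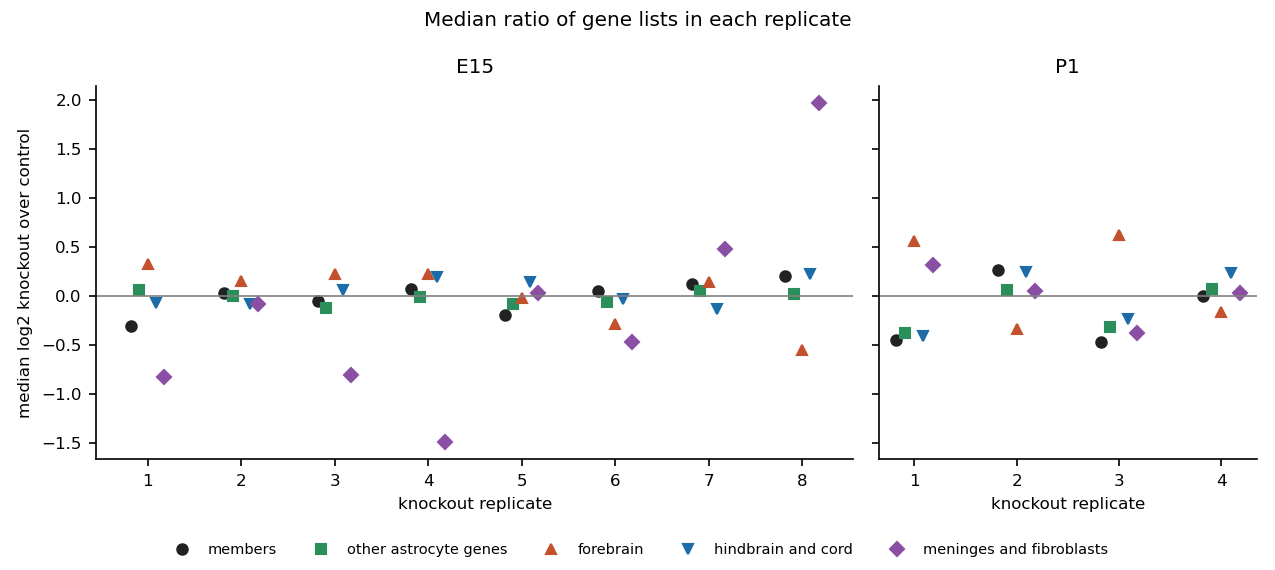
Median log2 ratio of knockout over control (vertical axis) of gene lists in each replicate, with the brightest probe of each gene. At P1 the members stand at -0.45, 0.27, -0.47 and 0.0009, and the forebrain list at 0.57, -0.34, 0.63 and -0.16.

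Other genes of astrocytes and of their formation were read from lists, with the brightest probe of each gene. Of all probes tested, 15.0% were called higher and 21.6% lower at P1 in controls. In animals labelled knockout these shares were 12.7% and 15.4%. The shares count every probe tested, dim ones included, so they are not a like baseline for lists with 1 bright probe for each gene. In controls, 18 of 38 other astrocyte genes were higher at P1 and 0 lower, with a median change of 0.35. The highest were Bcan, a proteoglycan of the brain matrix, at 1.87 (SE 0.13), Ndrg2 at 1.65 (SE 0.16), Ptprz1, a receptor phosphatase of glia, at 1.55 (SE 0.39) and Pla2g7 at 1.38 (SE 0.20). In animals labelled knockout 17 of 38 were higher and 1 lower, Aldh1a1 at -0.49. Of 38 regulators of astrocyte formation, 4 were higher and 12 lower in controls, against 15.0% and 21.6% of all probes. Whether the regulators differ from all probes as a list was not tested. Id4, an inhibitor of basic helix-loop-helix factors, fell by 1.21 (SE 0.17), Ezh2, which methylates histone H3, fell by 1.17 (SE 0.25), Rbpj, the DNA-binding partner of Notch, fell by 1.03 (SE 0.10) and Id1 fell by 0.98 (SE 0.20). Notch1, a receptor of that pathway, rose by 1.65 (SE 0.27). In the knockout comparison none of the 38 genes of either list passed the test at E15, at P1 or in the difference between the ages. The P1 median of other astrocyte genes was -0.10, with replicates at -0.38, 0.06, -0.32 and 0.07. In controls 9 of 14 neuronal genes were also higher at P1 and 1 was lower, and 3 of 15 radial glia genes were higher and 5 lower.

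Genes most like 3 of the members were sought over all 22 animals among 18382 genes, after the mean of each age and label was removed from each gene. The correlations are descriptions, since animals on 1 array share its noise. For Apoe they were Sec14l2 (Pearson's r = 0.80), Tff3 (0.762) and Flot1 (0.758). For Aqp4 A_52_P25710 they were Vamp1 (0.870), Sass6 (0.816) and Aplp2 (0.810). For Gfap A_52_P540991 they were Abcb1b (0.869), Zfp36l2 (0.843) and 1700030K09Rik (0.838). Among the members, with S100b and Sparcl1 left out for missing values, Apoe was nearest to Glul (0.632) and Aldoc (0.626), and Gfap and Gja1 stood at -0.515.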

How the data were processed

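RNA of whole brains was measured on 22 Agilent arrays. Mean and local background intensities of both dyes were deposited unnormalized, per the file headers, from Feature Extraction 8.1.1.1 (E15) and 8.5.1.1 (P1). The deposited value table gives log10 ratios of red over green that the scanner software had dye-normalized, per the file headers; they differ from the scanner ratios by at most 0.005 and keep each array's dye direction. The genome build is not given in the sources used here.

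Intensities were background-corrected (normexp, offset 50) and loess-normalized within arrays with limma 3.58.1 in R 4.3.3, with control spots given weight 0 and outlier spots set missing. Spots of a probe and arrays of a replicate were averaged, ratios were turned to knockout over control, and the mean dye effect was subtracted for E15 replicates 3 and 4, which had 1 array each. Levels come from the separated channels after Aquantile. Probes well above background in at least 50% of channels were kept. Tests were limma fits over all probes with Benjamini-Hochberg adjustment and a threshold of 0.05, with animals linked by a control as a random block at E15 and in the difference. Scripts were tested on simulated data. All probes of the members were named, and other genes by lists with at most 4 examples per direction. For probe symbols, 21445 came by accession, 5431 by symbol, 4636 by synonym, 2002 from the files, and 7660 probes had none. The members and lists were chosen with earlier results of these data known. The alternatives were other background corrections and scalings, single dyes, kept outlier spots, other filters, 1 probe a gene, leaving out each replicate, and replicate numbers as a block.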

Additional observations from a re-analysis of the deposited data

Results flagged for a closer look

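Of 129 groups of 4 to 8 member values, 7 held a value far from the others by Dixon's criterion, and chance flags about 1 in 20 groups. Among log2 ratios of knockout over control at E15, Aqp4 A_52_P25710 stood at -0.3007 in replicate 2 (next value -0.0519). Aqp4 A_51_P419319 stood at 0.445 in replicate 8 (next 0.0696), and S100b A_51_P208083 at 1.8381 in the same replicate (next 0.1581). At P1, replicate 4 held Gfap A_51_P395056 at 0.2808 (next -0.0369) and Glul A_52_P143866 at 0.0377 (next -0.2102). Among levels at E15, Fgfr3 A_52_P506516 stood at 7.9265 in control 3 (next 7.6778). Aqp4 A_52_P625527 stood at 6.7299 in the animal labelled knockout 8 (next 6.4057).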

How the results depend on the processing

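Over 2135 values of member probes under an alternative, 2044 kept their side of the threshold, 70 lost a call, 21 gained one and 0 called values changed sign; 97 uncalled values changed sign. In the E15 knockout comparison of all probes the 0 calls became 1 with the scanner's processed signals, 1 with the deposited value table, and 0 to 1 when a replicate was left out (1 without replicate 1). The 109 calls of the difference between the ages became 0 with processed signals, 0 with an offset of 10, 0 with the deposited table, 0 with outlier spots kept and 0 with only values of both dye orientations, 201 without a filter and 2 with probes well above background in all channels. Leaving out a replicate gave 43 (without E15 replicate 7) to 190 (without P1 replicate 4). None of the 109 was a member. In controls, the 13281 age calls became 7660 with Cy5 alone and 8323 with the scan-day set as a random block, chosen after seeing the data. With 1 probe a gene, 8 of 10 members were called higher and 0 lower in controls, and 5 of 10 higher and 0 lower in animals labelled knockout. The shares of all genes called higher or lower under that setting are not given here, so these counts have no like baseline. Member probes called lower in controls were 1 to 2 without a replicate (2 without E15 control 6). In animals labelled knockout the 2 lower calls became 1 with quantile scaling, 1 with processed signals scaled to the 75th percentile, 1 with Cy3 alone, 1 with outlier spots kept, 0 with Cy5 alone, and 0 to 2 without a replicate. The cause of these changes was not tested.

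The replicate numbers do not pair the samples: ratios of the same number at both ages correlated between -0.129 and 0.154, and 2 of 4 were best with their own number. With the replicate number as a block, 0 probes passed in the difference. Scan day as a block at P1 was not run, since all P1 arrays share 1 scan day. Dim probes set a limit, since the offset shrinks their changes.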
